A study of Mus musculus with 3 samples.

Results

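The regions described here were 2529 stretches of the mouse genome that were called enriched for the acidic patch mutant of H2A.Z in the stricter of the 2 lists for that library and that shared no base with the looser list. They were chosen by the lists themselves: a region was taken when it stood in the H2A.Z AP3 list named for a P threshold of 1e-12 and had no base in common with the H2A.Z AP3 list named for 1e-9. They made up 23.4% (95% Wilson interval 22.6 to 24.2) of the 10821 strict AP3 regions, and 2529 of the 201669 regions in the 6 lists of the series. The remaining 8292 strict AP3 regions, which lie inside the looser list, served as the comparison throughout.

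Enrichment was measured by ChIP-Seq in mouse embryonic stem cells (ESCs) from 3 libraries, 1 for each group, so no value has a replicate and no test between groups could be made. In the groups H2A.Z WT and H2A.Z AP3, a C-terminal YFP fusion under a doxycycline-inducible CMV promoter (1 µg/ml doxycycline) was carried by lentivirus into KH2 ESCs, YFP-positive cells were sorted, and a hairpin against the 3′ untranslated region lowered endogenous H2A.Z. Both were precipitated with an anti-GFP antibody (Abcam Ab290), and the mutant carried the substitutions G92N, D97N and S98K, which put H2A residues into the acidic patch. The H3K27me3 group is labelled as wild-type ESCs; its antibody is given as Millipore 07-449 in the labels and as a different product in the study's methods, so which one was used is unresolved. All 3 groups carry the strain label V6.5 (129SvJaexC57BL/6), although the label on treatment names KH2 cells as the parents of both transgenic lines. The lines express the fusion from an integrated viral promoter and not from the H2A.Z locus, and the cells were grown on fibroblast feeders that were left out at the last passage. The lists hold positions only, with no height, fold or read count, so the depth behind any region is unknown.

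H2A.Z is a variant of histone H2A that the SRCAP and p400 complexes place into nucleosomes, mainly those that flank the start sites of genes. Its acidic patch is a negatively charged surface of the nucleosome that other proteins and the H4 tail contact. H3K27me3 is the mark laid down by Polycomb repressive complex 2, and in ESCs it lies together with H2A.Z at the promoters of many silent developmental regulators.

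Sequences of 300 bp from 4 of the regions are given as examples of what was called, 1 from each class of annotation and overlap by a rule that takes the longest regions of at most 300 bp outside annotated UTRs. They were read from the + strand of mm9 (NCBIM37), and CpG dinucleotides are in capitals. The first lies 419 bp upstream of Gnb4, which encodes a G protein beta subunit (chr3:32515776-32516075), wholly under WT and 9550 bp from the looser AP3 list. The second lies within Comp, which encodes a cartilage matrix protein, 894 bp downstream of its start (chr8:72898201-72898500), with 300 bp under WT and 250 bp under H3K27me3. The third lies in an exon of Gm13426, 20495 bp upstream of Fubp3 (chr2:31407526-31407825), wholly under WT. The last lies in an intron of Kazn (chr4:141672501-141672800), 31700 bp from any WT region.
Gnb4 promoter: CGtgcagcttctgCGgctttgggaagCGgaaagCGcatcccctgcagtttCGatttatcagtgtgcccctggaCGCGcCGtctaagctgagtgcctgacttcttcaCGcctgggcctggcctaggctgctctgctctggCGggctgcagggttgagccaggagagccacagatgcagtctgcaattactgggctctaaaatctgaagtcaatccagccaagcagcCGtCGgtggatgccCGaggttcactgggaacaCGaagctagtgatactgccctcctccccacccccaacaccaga
Comp promoter: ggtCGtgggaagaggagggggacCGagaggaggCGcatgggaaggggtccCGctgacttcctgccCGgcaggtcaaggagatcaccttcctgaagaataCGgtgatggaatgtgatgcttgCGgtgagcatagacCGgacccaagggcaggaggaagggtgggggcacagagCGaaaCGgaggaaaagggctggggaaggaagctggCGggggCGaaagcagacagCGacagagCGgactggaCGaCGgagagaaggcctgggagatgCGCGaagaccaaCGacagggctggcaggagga
Gm13426 exon: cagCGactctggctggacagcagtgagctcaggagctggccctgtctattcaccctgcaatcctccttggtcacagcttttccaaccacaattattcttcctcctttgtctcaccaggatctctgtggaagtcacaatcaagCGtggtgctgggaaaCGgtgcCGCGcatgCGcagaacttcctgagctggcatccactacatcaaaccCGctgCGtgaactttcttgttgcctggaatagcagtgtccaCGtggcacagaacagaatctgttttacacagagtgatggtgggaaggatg
Kazn intron: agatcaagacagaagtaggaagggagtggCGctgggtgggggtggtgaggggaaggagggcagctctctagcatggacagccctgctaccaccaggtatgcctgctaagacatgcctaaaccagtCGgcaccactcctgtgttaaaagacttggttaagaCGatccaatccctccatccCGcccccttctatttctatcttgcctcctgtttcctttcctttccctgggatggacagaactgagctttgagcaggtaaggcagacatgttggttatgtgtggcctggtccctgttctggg
The Comp sequence held 19 CpG dinucleotides with 63.0% GC, and its CpG count was 0.750 of that expected from its C and G content. The Gnb4 sequence held 14 (ratio 0.531), the Gm13426 exon 9 (0.434) and the Kazn intron 4 (0.184). The second region of each class gave another order: 0.758 in an intron of Rab6b (chr9:103061401-103061700), with no WT or H3K27me3 within 1 kb, 0.412 in an intron of Smox, under WT, 0.326 at the Frem3 promoter, under WT and H3K27me3, and 0.250 at the 4930590J08Rik promoter, under WT. Single sequences therefore show neither the range of CpG content nor an order by class.

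As for where the rule drew its line, the nearest of the 2529 regions lay 225 bp from the looser list, and 2 of them lay at that distance. On the other side of the line, the smallest overlap with the looser list among the 8292 other strict regions was 25 bp, found for 1005 of them, and all 8292 lay wholly inside a looser region with 0 crossing an edge. The smallest gap between neighbours within every one of the 6 lists was also 225 bp. Thus no strict region straddled the line, and none came closer to the looser list than regions of one list come to each other. Most of the strict-only regions were far from it: the median gap was 13700 bp (quartiles 3325 and 42875 bp), 12.5% lay within 1 kb, 44.4% within 10 kb and 90.0% within 100 kb. Regions found only in the strict WT list lay a median of 2575 bp from the looser WT list, and those found only in the strict H3K27me3 list 875 bp from the looser H3K27me3 list. The looser lists themselves differ in spacing in the same order, with a median of 37250 bp between neighbours for AP3, 6675 bp for WT and 975 bp for H3K27me3. Under a single rule applied at 2 thresholds each bin that passes 1e-12 also passes 1e-9, and the procedure behind the 1e-12 lists is not given in the sources used here. Regions found only in the strict list made up 8.05% (5384 of 66862) of the strict WT list and 3.24% (455 of 14058) of the strict H3K27me3 list.

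The strict-only AP3 regions were short. Their median length was 100 bp (quartiles 25 and 200 bp) against 175 bp (75 and 275 bp) for the other strict AP3 regions. A single bin of 25 bp made up 28.2% (26.4 to 29.9) of them, 712 regions, against 12.1% (11.4 to 12.8) of the others. At the other end, 137 (5.42%) reached 500 bp, against 10.7% of the others, and 14 reached 1 kb. Together they covered 405075 bp, 17.4% of the bases in the strict AP3 list. They lay mostly alone: 2365 had no other such region within 1 kb, 79 pairs lay within 1 kb of each other, and 2 runs held 3 regions, so that 164 (6.48%) were in a run.

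To ask whether the strict-only mutant regions fall where wild-type H2A.Z was found, they were set against the looser WT list. A WT region shared at least 1 bp with 1736 of them, 68.6% (66.8 to 70.4), where the same share over all strict AP3 regions was 77.6%. The other strict AP3 regions overlapped WT in 80.3% (79.4 to 81.1), and looser AP3 regions that held no strict region did so in 61.5% (60.3 to 62.7). Hence most strict-only regions lay on WT sites, at a share below that of the rest of the strict list and above that of the looser regions that had no strict call. Of the 2529, 1482 (58.6%) lay wholly inside a WT region, and 80.0% had one within 1 kb, compared with 89.6% of the others. Over the single chromosomes the share with WT ran from 61.1% on chromosome 17 to 74.2% on chromosome 13, leaving aside chromosome X with its 1 region.

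Longer strict-only regions more often lay on WT sites, and so did the other strict regions. Of the regions of a single bin, 57.9% (54.2 to 61.4) overlapped WT, against 66.4% (63.4 to 69.2) of single-bin regions inside the looser list. The shares were furthest apart at 50 to 100 bp, 59.8% (55.7 to 63.7) and 71.7% (69.6 to 73.7). At 125 to 200 bp the shares were 71.3% (67.6 to 74.6) and 80.8% (79.2 to 82.2). Over 400 bp they were 94.1% (89.8 to 96.7) and 95.2% (93.9 to 96.3), so the intervals of the 2 sets were apart in the 3 shorter classes and overlapped in the 2 longer ones. For H3K27me3 the share among strict-only regions stayed between 7.16% and 11.2% over the length classes, while among the others it reached 20.1% (17.9 to 22.4) over 400 bp.

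**Figure D1:**
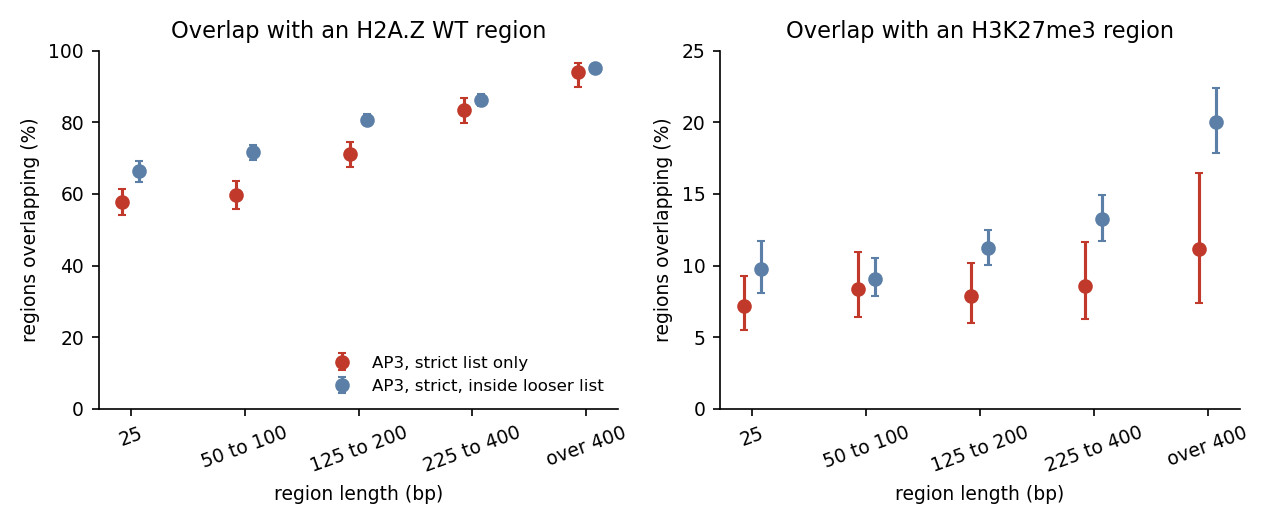
Share of strict AP3 regions (y axis, percent) that shared at least 1 bp with an H2A.Z WT region (left) or an H3K27me3 region (right) of the looser lists, by region length in bp; red points are regions found only in the strict list, blue points strict regions inside the looser list, and bars are 95% Wilson intervals. For WT the red points run from 57.9% at 25 bp to 94.1% over 400 bp and lie below the blue ones in every class.

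The WT regions beneath them were longer than those without AP3. They were picked by overlap, which a longer region meets more easily, so part of that difference follows from the selection. The 1693 WT regions that held a strict-only AP3 region had a median length of 675 bp, against 575 bp for the 6339 that held another strict AP3 region and 200 bp for the 66620 without an AP3 region of either list. In 99 of the 1693 WT regions a looser AP3 region was present as well, and these had a median length of 1450 bp. The strict-only list of the WT library was a further source of overlap: 86 strict-only AP3 regions, 3.40% (2.76 to 4.18), shared bases with a WT region that was itself absent from the looser WT list, against 1.44% (1.20 to 1.71) of the other strict AP3 regions. Counting a WT region of either list, 72.0% of the strict-only AP3 regions and 81.7% of the others overlapped WT.

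H3K27me3 was found at few of these regions. An H3K27me3 region shared bases with 206 of them, 8.15% (7.14 to 9.28), beside 11.3% over all strict AP3 regions and 12.3% (11.6 to 13.0) of the others. Of the 2529, 1546 (61.1%) overlapped WT alone, 190 (7.51%) overlapped both, 16 (0.633%) overlapped H3K27me3 alone and 777 (30.7%, 29.0 to 32.5) overlapped neither. Among the other strict AP3 regions, 19.5% (18.6 to 20.3) overlapped neither. When only regions on a WT site were counted, H3K27me3 was present at 10.9% (9.56 to 12.5) of the strict-only ones and at 15.0% (14.2 to 15.9) of the others, so the lower share was also seen among regions with WT.

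By the position of their midpoint, 854 of the strict-only regions, 33.8% (32.0 to 35.6), lay in a promoter, taken as within 2 kb of the start of a protein-coding transcript, beside 39.9% over all strict AP3 regions and 41.8% (40.7 to 42.8) of the others. Intergenic sequence held 923, 36.5% (34.6 to 38.4), introns 474 (18.7%) and exons outside promoters 278 (11.0%). Over all strict AP3 regions these 3 shares were 33.4%, 17.3% and 9.42%. Of the regions only in the strict WT list 18.4% (17.4 to 19.5) lay in promoters, and of the whole looser WT list 24.2%. The median distance from a start was 8397 bp for the strict-only AP3 regions, 5454 bp for the other strict AP3 regions and 16934 bp for the strict-only WT regions. The strict-only AP3 regions were thus less often in promoters than the strict AP3 list. The strict-only WT regions were less often in promoters than the looser WT list, since the strict WT list was not annotated. The looser WT list also had a lower promoter share than the strict AP3 list, a comparison at unlike thresholds.

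The overlap with WT followed the annotation. At promoters 79.0% (76.2 to 81.6) of the strict-only AP3 regions overlapped WT and in exons 85.6% (81.0 to 89.3). In introns the share was 60.3% (55.9 to 64.6) and in intergenic sequence 58.2% (55.0 to 61.3), against 76.3% and 74.0% of the other strict AP3 regions there. The 2 sets were thus further apart away from genes and in introns than at promoters (79.0% and 84.4%). H3K27me3 was found at 15.6% (13.3 to 18.2) of the strict-only promoter regions, 12.6% of those in exons, 2.95% of those in introns and 2.60% of those between genes. Among the other strict AP3 regions these shares were 20.6%, 15.0%, 4.65% and 4.83%, also highest at promoters and in exons.

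**Figure D2:**
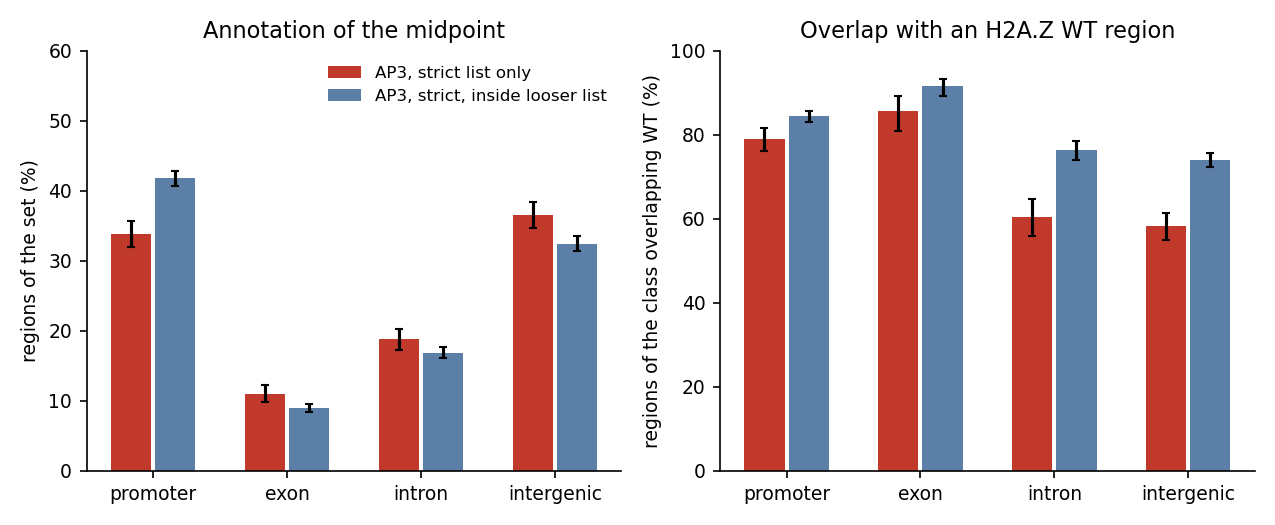
Left, share of strict AP3 regions (y axis, percent) whose midpoint lay in a promoter, exon, intron or intergenic sequence; right, share of each class that overlapped an H2A.Z WT region. Red bars are regions found only in the strict list and blue bars strict regions inside the looser list, with 95% Wilson intervals; the red bars are lower at promoters (33.8% against 41.8%) and lower for WT overlap in all 4 classes.

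Around start sites the strict-only regions formed a peak on each side. In bins of 100 bp, 65 midpoints fell at the bin centred 250 bp upstream and 98 at that centred 150 bp downstream, with 39 in the bin just upstream of the start between them. Within 1 kb of a start, 305 lay upstream and 419 downstream, which puts 42.1% (38.6 to 45.8) upstream. The corresponding share among the other strict AP3 regions was 45.1% (43.3 to 46.8), so the 2 intervals overlapped. Within 500 bp of a start lay 22.1% of the strict-only regions and 29.1% of the others.

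**Figure D3:**
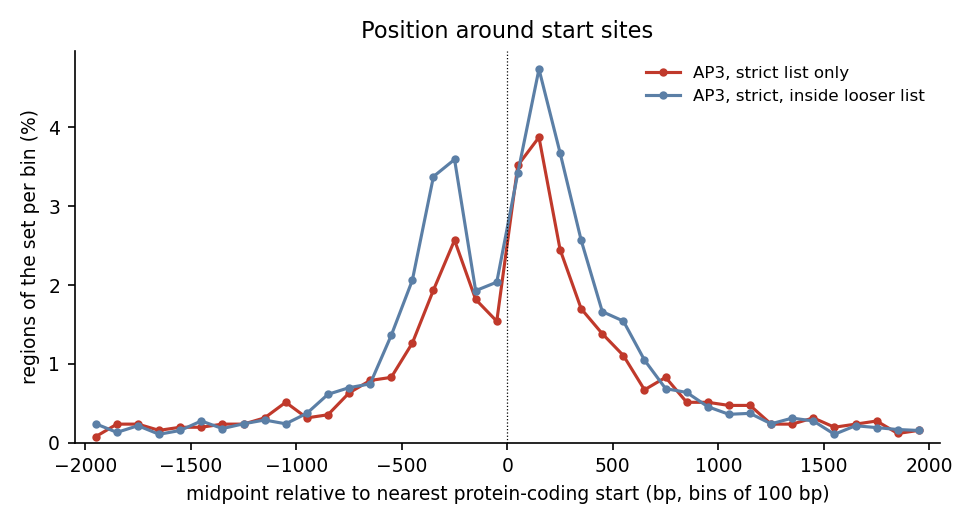
Midpoints of strict AP3 regions relative to the nearest protein-coding start (x axis, bp, negative values upstream) as the percent of each set per bin of 100 bp; red, found only in the strict list, and blue, inside the looser list. Both sets show a peak on each side of the start with the higher one downstream, where 98 strict-only regions fell in the bin centred at 150 bp.

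At the level of genes, a strict-only region lay within 2 kb of a start of 900 of 22342 protein-coding genes, or 4.03%. For 649 of these, 72.1% (69.1 to 74.9), no looser AP3 region lay within 2 kb of any of the gene's starts. At these genes strict-only regions were the sole AP3 calls near a start. A gene with a looser AP3 region at another of its starts was left out of the 649. Counting both lists, 5625 genes (25.2%) had an AP3 region, against 4976 (22.3%) by the looser list alone. Of the 649 genes, 602 (92.8%, 90.5 to 94.5) had a WT region and 173 (26.7%, 23.4 to 30.2) an H3K27me3 region, beside 60.9% and 17.8% over all genes. The 4976 genes of the looser list had these in 94.3% (93.6 to 94.9) and 34.0% (32.7 to 35.3). The genes gained through the strict list were thus nearly all WT genes, with H3K27me3 at a smaller share than at the genes of the looser list. Where WT was called, it covered a median of 850 bp of the promoter window at the 602 genes, 850 bp at genes of the looser AP3 list and 525 bp at genes without AP3. Among genes with WT and no looser AP3 region, 6.76% (602 of 8908) had a strict-only region; the share was 8.02% (6.94 to 9.26) with H3K27me3 and 6.37% (5.81 to 6.97) without it, and 0.556% (47 of 8458) at genes with neither WT nor looser AP3.

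Among lists of developmental regulators, many of them Polycomb targets in ESCs, the shares of genes with a strict-only region were 2.56% of Hox genes, 3.60% of transcription factors and 6.90% of signalling ligands and receptors, beside 4.03% of all genes, and no list was tested. Of 39 Hox genes, 37 had WT, 39 had H3K27me3 and 21 had a looser AP3 region, while 1 had a strict-only region: Hoxa6, which helps set position along the body axis. It measured 250 bp, all of it under WT and H3K27me3. It lay within the annotated gene, centred 430 bp upstream of an internal start. Of 111 developmental transcription factors, 54 had a looser AP3 region and 4 a strict-only one. The longest was at Atoh1, which directs hair cell and granule neuron fate (chr6:64679251-64679925, 675 bp, centred 448 bp downstream of the start). It lay wholly under WT and H3K27me3, and no looser AP3 region lay at the gene. The others were 200 bp at Pax1, a factor of the axial skeleton, 50 bp at Tbx1, a factor of the pharyngeal arches, and a single bin of 25 bp at Meis1, a Hox cofactor. Of 58 signalling ligands and receptors, 4 held one, namely Fgf20, Ihh, Wnt11 and Wnt7a, with 225, 200, 75 and 25 bp. All 4 ligand genes also had a looser AP3 region within 2 kb of a start, so none of them counted as gained through the strict list. At Fgf20 that looser region lay at another start, and the strict-only region itself was 21425 bp from the looser list. WT and H3K27me3 lay at the promoters of all 4 transcription factor genes and all 4 ligand genes, as they did at nearly all genes of these lists (WT at 110 of 111 and 52 of 58, H3K27me3 at 107 of 111 and 50 of 58). The strict-only regions at Meis1, Fgf20 and Wnt7a themselves shared no base with H3K27me3. Those at Atoh1, Pax1, Tbx1, Ihh and Wnt11 did.

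The other lists were likewise short, and their counts are to be read beside the 4.03% of all genes, a share at which lists of this size hold few cases or none. Of 25 pluripotency genes, Prdm14, a repressor that holds naive ESCs, had a strict-only region of 25 bp, centred 1881 bp downstream of the start and under H3K27me3 but not WT. None was found at 32 Polycomb genes, of which 20 had WT, or at 21 genes for H2A.Z and its deposition complexes, of which 15 had WT. Of 79 genes of cytosolic ribosomal proteins 3 had one, at Rpl26 (150 bp), Rps14 (125 bp) and Rpl37a (25 bp), each centred 101 to 284 bp upstream of the start and wholly under WT, with no looser AP3 region and no H3K27me3 at the gene. Of 39 cell cycle and housekeeping genes 3 had one, at Ldha, which encodes lactate dehydrogenase A (175 bp), E2f1, a factor of the G1/S transition (100 bp), and Actb, which encodes beta-actin (25 bp). H3K27me3 was absent from all 6 of these promoters, and it was rare in the lists as a whole, at 2 of the 79 ribosomal and 4 of the 39 cell cycle and housekeeping genes. Of 26 imprinted genes, Dlk1, a Notch ligand relative, had 75 bp, and of 19 germline genes Brdt, a testis bromodomain protein, had 225 bp and Asz1, a piRNA pathway protein, 75 bp. Of 6 fibroblast genes none had one.

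The cell type was looked at through 8 ESC markers and 6 fibroblast markers, for which these lists give histone positions and not expression. A WT region lay at 1 of the 8 ESC marker promoters (Esrrb, 1375 bp) and at 3 of the 6 fibroblast ones (Col1a1, Col1a2 and Thy1, 700 to 950 bp), and H3K27me3 at the same 4 genes. Over all protein-coding genes, 60.9% had WT and 17.8% had H3K27me3. A looser AP3 region lay at Col1a1, Col1a2 and Thy1 (75, 200 and 25 bp) and at none of the ESC markers. None of the 14 had a strict-only AP3 region, beside 4.03% of all genes, a share at which 14 genes hold few cases or none. The share of feeder chromatin in the libraries was not tested.

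The longest of the regions were mostly WT sites, as long strict AP3 regions were in general. Of the 10 longest, 1050 to 2150 bp, 9 overlapped WT, 5 overlapped H3K27me3, 4 lay at promoters and 5 were on chromosomes 6 and 8. Among all strict-only regions over 400 bp, 94.1% overlapped WT and 11.2% H3K27me3, and among the other strict regions of that length 95.2% and 20.1%. Over all strict-only regions, 33.8% lay at promoters and 23.0% on chromosomes 6 and 8. The longest spanned the start of Htra4, which encodes a secreted serine protease (chr8:26147701-26149850, 2150 bp), with 1325 bp under WT and 1825 bp under H3K27me3, 8875 bp from the looser list. The next, in an exon of AI464131 (chr4:41444651-41446175, 1525 bp), lay wholly under both. The third lay in Plvap, which encodes a protein of endothelial diaphragms (chr8:74031176-74032575, 1400 bp), and had 1375 bp under WT and none under H3K27me3. A region in Chst3, which encodes a chondroitin sulfotransferase (chr10:59648301-59649575, 1275 bp), and another at Ccdc48 (chr6:87681426-87682650, 1225 bp) were again wholly under both. The remaining ones included Csad, an enzyme of taurine synthesis (1175 bp, 525 under WT), and Gpr84, a receptor for medium-chain fatty acids (1175 bp, 1150 under WT and 300 under H3K27me3). The last of them lay at E230028L10Rik (1050 bp, 1000 under WT) and in an intron of 2210408F21Rik (1075 bp, 1000 under WT), the latter 700 bp from the looser AP3 list.

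The exception among the 10 was a region of 1125 bp between genes (chr8:14011951-14013075), 37481 bp upstream of 2610019F03Rik, with no WT region of either list within 4300 bp and no H3K27me3 within 79800 bp. It belonged to 405 strict-only regions, 16.0%, that had no WT region of either list within 1 kb. These were shorter, with a median of 75 bp and 148 (36.5%) of a single bin, and 224 (55.3%) lay between genes against 60 (14.8%) at promoters. H3K27me3 was likewise missing within 1 kb of 394 of them. The next longest were a region of 550 bp lying 5864 bp upstream of Kank3 (chr17:33941326-33941875, 5575 bp from WT) and one of 525 bp lying 89594 bp from the nearest start, that of Trrap (chr5:145635726-145636250, 3925 bp from WT).

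On each autosome the longest promoter region overlapped WT, 19 of 19, and 11 of them lay wholly under it, while 3 overlapped H3K27me3 (at Htra4, Ccdc48 and Gpr84). They ran from 275 to 2150 bp, and 12 were centred downstream of the start. These regions were picked for length and promoter position. Of all strict-only regions at promoters 79.0% overlapped WT and 15.6% H3K27me3. Of strict-only regions over 400 bp, at promoters or elsewhere, 94.1% and 11.2% did. Among those under WT over their whole length were 1000 bp at Inhbe, an activin subunit (chr10:126787326-126788325), 975 bp at Pdzd3 (chr9:44057401-44058375), 875 bp at Ccdc57 (chr11:120793901-120794775) and 825 bp at Ephx1, a microsomal epoxide hydrolase (chr1:182947851-182948675). Others were 800 bp at Ltb4r2, a leukotriene B4 receptor, 600 bp at Ffar1, a fatty acid receptor, 600 bp at Ammecr1l, 550 bp at Akap6, a kinase anchoring protein, 375 bp at Kcnv2, a potassium channel subunit, and 275 bp at Tmem191c. Of the rest, those not named above were in part under WT: 725 of 775 bp at Traf1, an adaptor of TNF receptors, 425 of 625 bp at Tmed5, 225 of 475 bp at Camk2d, a calcium-dependent kinase, 275 of 425 bp at Lemd2 and 200 of 425 bp at A830005F24Rik. Chromosome X had no promoter region of this kind.

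Genes with several strict-only regions were rare: 858 had 1, 40 had 2 and 2 had 3. At Zfp316, a zinc finger gene, 3 regions of 100, 200 and 150 bp lay downstream of an internal start within 1725 bp (chr5:144015151-144016875). All were under WT and H3K27me3, at a gene with 2961 bp of WT and no looser AP3 region near its starts. At Amhr2, the receptor for anti-Müllerian hormone, they measured 50, 225 and 100 bp and were spread over separate starts, and the 225-bp one was not under WT. The second run of 3 lay in Zdhhc1 upstream of Tppp3, a tubulin-binding protein (chr8:107996351-107997700, 825 bp covered over 1350 bp). A pair upstream of Plekha6 (chr1:135101026-135101750) came next, with 275 and 150 bp, both under WT.

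Chromosomes 6 and 8 held more of these regions than any other chromosome, 292 and 290, or 582 (23.0%, 21.4 to 24.7) together. Their density there was 2.07 per Mb, against 0.888 per Mb over the other autosomes, which ranged from 0.464 on chromosome 3 to 1.51 on chromosome 11. The whole strict AP3 list was denser still there, with 11.8 regions per Mb against 3.41, so that the strict-only regions made up 17.6% (16.3 to 18.9) of the strict list on chromosomes 6 and 8 and 26.0% (25.03 to 27.02) on the other autosomes, where the single values ran from 19.7% to 30.2%. The excess on these 2 chromosomes was thus smaller among strict-only regions than in the rest of the list. The regions on chromosomes 6 and 8 had a median of 125 bp against 100 bp, included 58 of the 137 that reached 500 bp, and overlapped WT in 71.0% (67.1 to 74.5) against 67.9% (65.8 to 70.0). They lay at promoters in 20.9% of cases on chromosome 6 and 26.6% on chromosome 8. Of the 649 genes with a strict-only region alone, 75 (11.6%) were on them. Chromosome X held 1 of its 25 strict AP3 regions. What sets chromosomes 6 and 8 apart in this library was not tested.

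**Figure D4:**
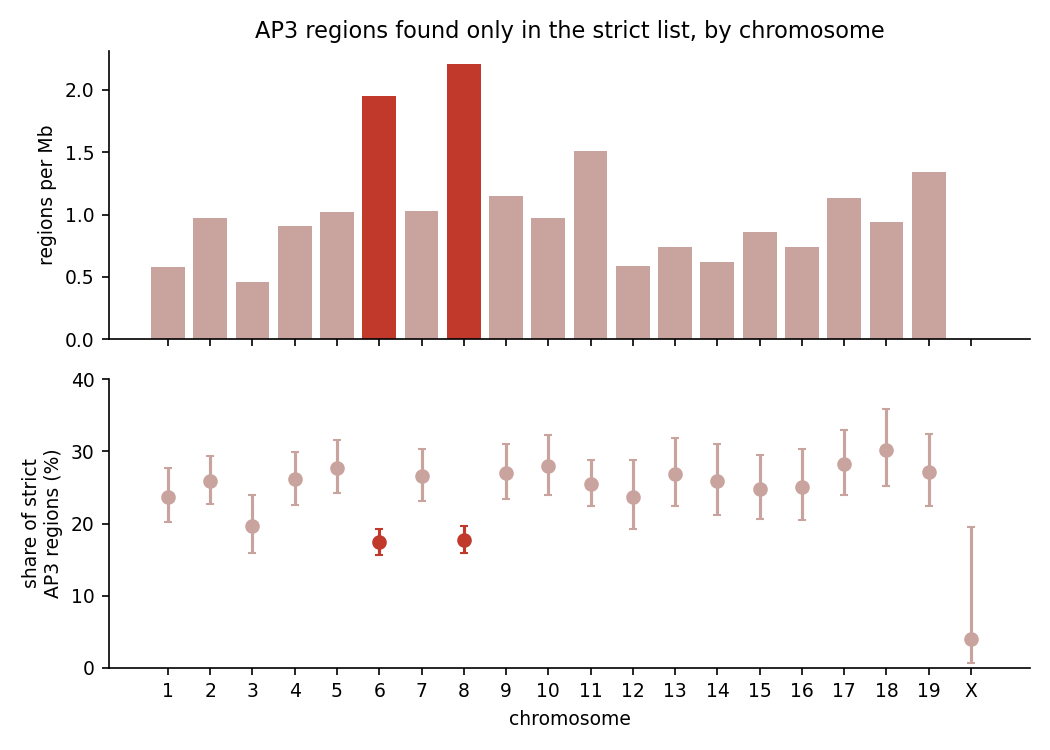
Regions found only in the strict AP3 list on each chromosome (x axis): number per Mb (top) and share of the strict AP3 regions of that chromosome in percent with 95% Wilson intervals (bottom), with chromosomes 6 and 8 in dark red. Chromosomes 6 and 8 have the highest densities, 1.95 and 2.20 per Mb, and shares of 17.4% and 17.7%, below those of the other autosomes.

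The base composition around the regions was compared through the CpG ratio, the number of CpG dinucleotides found over that expected from the C and G content. Over the regions themselves the median ratio was 0.371 for strict-only AP3 regions and 0.402 for the others. Regions of a single bin had a median ratio of 0 in both sets. They made up 28.2% of the strict-only regions and 12.1% of the others, so these 2 medians were not matched for length. In windows of 500 bp centred on the regions, the median ratio was 0.359 for strict-only AP3 regions, 0.412 for the other strict AP3 regions and 0.285 for strict-only WT regions. Windows with a ratio of at least 0.6 and a GC content of at least 50%, values usual for CpG islands, made up 17.9%, 24.4% and 9.31% of these sets. Among the strict-only AP3 regions they were 23.9% of those on a WT site, 4.79% of those without WT and 46.1% of those with H3K27me3. Hence CpG-rich windows were concentrated where the other 2 libraries also had a call. The same order held over the other strict AP3 regions, with 28.6%, 7.46% and 55.1%.

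**Figure D5:**
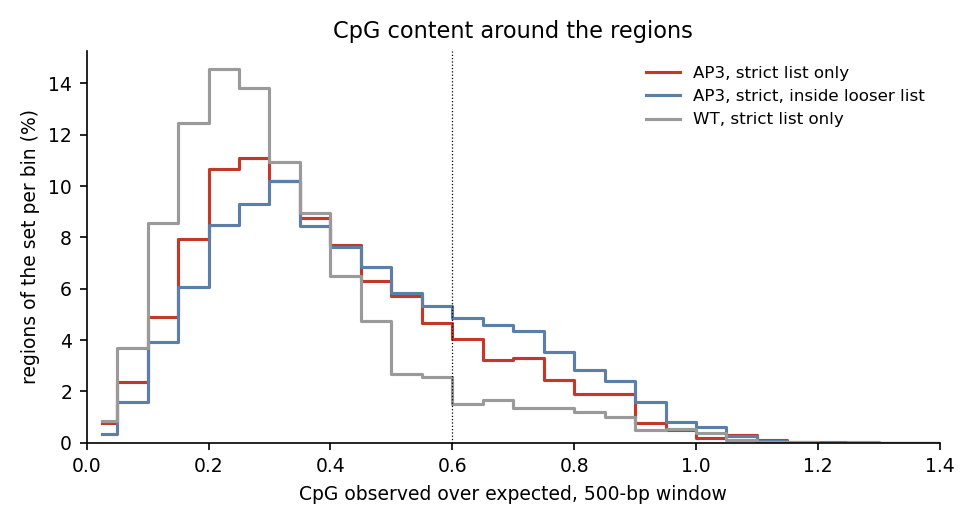
Distribution of the CpG observed over expected ratio in 500-bp windows (x axis) as percent of each set per bin (y axis) for AP3 regions found only in the strict list (red), strict AP3 regions inside the looser list (blue) and WT regions found only in the strict WT list (grey); the dotted line marks 0.6. The median of the red set, 0.359, lies between those of the blue (0.412) and grey (0.285) sets.

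A search of the same windows on both strands for short sequences gave shares close to those of the whole strict list, apart from a GC-rich one. GGGCGG, the core of the GC box bound by Sp1-type factors, was found in 31.4% (29.6 to 33.2) of strict-only windows, in 37.5% (36.5 to 38.6) of the other strict windows and in 36.1% of all strict ones. CCAAT was found in 40.6% of strict-only windows and 41.2% of all strict ones, and CACGTG in 11.3% and 11.4%. A run of at least 10 CA units on either strand was found in 4.19% (3.48 to 5.04) and 3.59%. GGGCGG holds a CpG itself and therefore shares letters with the CpG ratio, and a match is no evidence of binding.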

How the data were processed

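The authors read each library from 1 end on an Illumina GAII, aligned the reads to mm9 with Bowtie 0.12.3 allowing 2 mismatches, and, for H2A.Z, extended them to 200 bp, assigned them to bins of 25 bp and called bins by a Poisson model at 1e-9 with at least 5-fold enrichment over input. The methods state this calling for H2A.Z only and take H3K27me3 peaks from earlier work, so how the deposited H3K27me3 lists were called is not given in the sources used here. The submitters' processing notes also name bedtools. The procedure for the 1e-12 lists is not given in the sources used here. The deposited lists hold only starts and ends, so depth is unknown and the input was not analysed here.

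Overlap was counted from 1 bp, gaps as the bases between regions, and midpoints were assigned to promoter (within 2 kb of 45993 starts of protein-coding transcripts in GENCODE vM1) first, then to exon, intron or intergenic sequence. A gene was counted when a region had bases within 2 kb of any of its starts. Shares carry 95% Wilson intervals, which cover counting error only and treat regions as independent. With 1 library per group, no p-value is given. The procedures were tested on simulated data. Python 3.11.15, NumPy 2.4.6, SciPy 1.17.1, Matplotlib 3.10.9 and samtools 1.23.1 were used.

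The regions described and the gene lists were chosen with earlier results of these data known. Regions and genes were named by rule: the 10 longest, the 3 longest without WT within 1 kb, the 3 longest with H3K27me3, the longest promoter region of each chromosome, genes with 3 or more regions, up to 6 genes per list by covered length, and the 3 runs with most regions. Sequences came from the 2 longest regions of at most 300 bp in each of 4 classes of annotation and overlap, off chromosome 18, of which the first of each class was printed. Alternatives covered the threshold and overlap criterion of the other lists, the promoter window and starts, region length, the distance from the looser list, joining of neighbours and omission of chromosomes 6 and 8.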

Additional observations from a re-analysis of the deposited data

How the results depend on the processing

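With 1 library in each group no library could be left out, and no paired analysis was possible because no result comes from a test. Of 30 alternatives, 17 kept a share or median within the 95% interval of the reported value, or a count within 1.5 times of it, and 13 did not. The number of strict-only regions fell from 2529 to 1408 when at least 100 bp was asked for. The share that overlapped WT, 68.6%, was 72.0% with both WT lists, 80.0% with WT within 1 kb and 77.1% for regions of at least 100 bp. The share that overlapped H3K27me3, 8.15%, was 6.88% with the strict H3K27me3 list and 14.4% with H3K27me3 within 1 kb. The share in promoters, 33.8%, was 28.6% with a window of 1 kb, 41.4% with 5 kb, 29.8% with the most upstream start of each gene, 39.6% with the starts of all annotated transcripts, 36.8% without chromosomes 6 and 8 and 36.1% for regions of at least 100 bp. The share on chromosomes 6 and 8, 23.0%, was 25.2% for regions of at least 100 bp. The wider settings count more by construction. For the other settings the cause was not tested. Keeping only regions at least 1 kb from the looser list left 2219 regions and moved no share out of its interval. The 649 genes ran from 574 to 710 over the alternatives. Read depth is unknown, which limits what the absence of a region shows.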

Other observations

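Some strict-only AP3 regions away from protein-coding promoters lay near starts of other transcripts. Where the nearest start lay within 2 kb, it belonged to a gene annotated as a processed transcript for 23 of them, as a lincRNA for 20, as a pseudogene for 18 and as an miRNA for 9. Among the other strict AP3 regions these numbers were 88, 73, 39 and 26, in a set of 8292 regions against 2529. For 65 strict-only and 194 other regions the nearest start was that of a non-coding transcript of a protein-coding gene. These are counts and not shares, and the larger set has the larger counts, so no difference between the sets is read from them. Annotated UTR bases were shared by 335 of the 2529 regions, a count given without one for the other strict AP3 regions.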
